A study of Mus musculus with 12 samples.

Results

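The flavin-containing monooxygenases are enzymes of the endoplasmic reticulum that use NADPH and a bound flavin (FAD) to add oxygen to soft nitrogen and sulfur atoms of drugs, foods and the body's own metabolites. Liver carries several of them beside the cytochromes P450, and in mice Fmo1 is known to be higher in female than in male liver. The Fmo genes described here are Fmo1, Fmo2, Fmo4 and Fmo5. They were found by their symbols in the array annotation, which gave 7 probe sets of the 22626 on the array and 4 genes of the 12393 tested. The family was chosen on the low Fmo1 values of the HDAC9 knockout arrays, so every comparison that uses those arrays is given for its members as a difference with its error and no p-value. Counts of members at the threshold in those comparisons are also listed, but nothing is read from them.

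RNA of whole liver was hybridised to 12 Affymetrix Mouse430A arrays, 3 in each of 4 groups of female C57BL/6 mice that were 8 to 12 weeks old. The groups were wild-type mice on a high-fat diet (60% of calories from fat), mice lacking histone deacetylase 9 (HDAC9 knockout), mice lacking histone deacetylase 6 (HDAC6 knockout), and wild-type mice on chow (25% of calories from fat). Both deleted genes encode enzymes that take acetyl groups off proteins, histones among them. No diet is stated for the knockout mice, so genotype and diet cannot be told apart in a comparison of a knockout with either wild-type group. Replicates carry numbers in the labels, but separate mice are not stated, and p-values therefore cover only the spread between these samples, which may be technical. Values are log2 expression after RMA (robust multi-array average), and 1 unit is a doubling. With 3 arrays a group precision was limited. The SE (standard error) of a group difference had a median of 0.124 over genes, and an exact permutation test of 3 arrays against 3 cannot give a p under 0.1.

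The array medians lay between 5.78 and 5.86, and Pearson's r between any 2 arrays, taken over probe sets, was 0.987 to 0.998. The Hdac6 probe set averaged 6.28 ± 0.198 in HDAC6 knockout livers and 7.91 ± 0.060 in chow livers (SD, n = 3 each). The Hdac9 probe set read 4.04 to 4.53 on all 12 arrays and could not check the HDAC9 label. Of 13 hepatocyte markers 10 were measured, and their list median on each array lay within 0.04 of the 12-array mean. HDAC9 knockout replicate 2 stood apart: its 21 measured exocrine pancreas markers (of 26 listed) had a median 3.39 above the 12-array mean and a summed log2 value of 152.7, against 98.8 and 89.7 on HDAC9 knockout replicates 1 and 3 and 85.8 to 94.8 on the other 9 arrays.

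Fmo1 oxidises a wide range of amines and thioethers, and it converts hypotaurine to taurine. Its probe set (1417429_at) read 11.20, 11.59 and 11.38 in high-fat livers, 10.63, 8.16 and 8.37 in HDAC9 knockout livers, 11.66, 11.51 and 11.31 in HDAC6 knockout livers, and 11.60, 11.47 and 11.61 in chow livers. All 3 HDAC9 knockout arrays lay below all 9 others, whose range was 11.20 to 11.66, and replicate 1 lay much nearer to that range than replicates 2 and 3 did. The gap to the lowest of the 9 other arrays was 0.56 for replicate 1, 3.04 for replicate 2 and 2.83 for replicate 3. On a linear scale the chow mean was 1.90 times the value of replicate 1, 10.6 times that of replicate 2 and 9.11 times that of replicate 3. The size of the difference thus varied several-fold between the 3 HDAC9 knockout arrays, while its direction was shared.

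**Figure D1:**
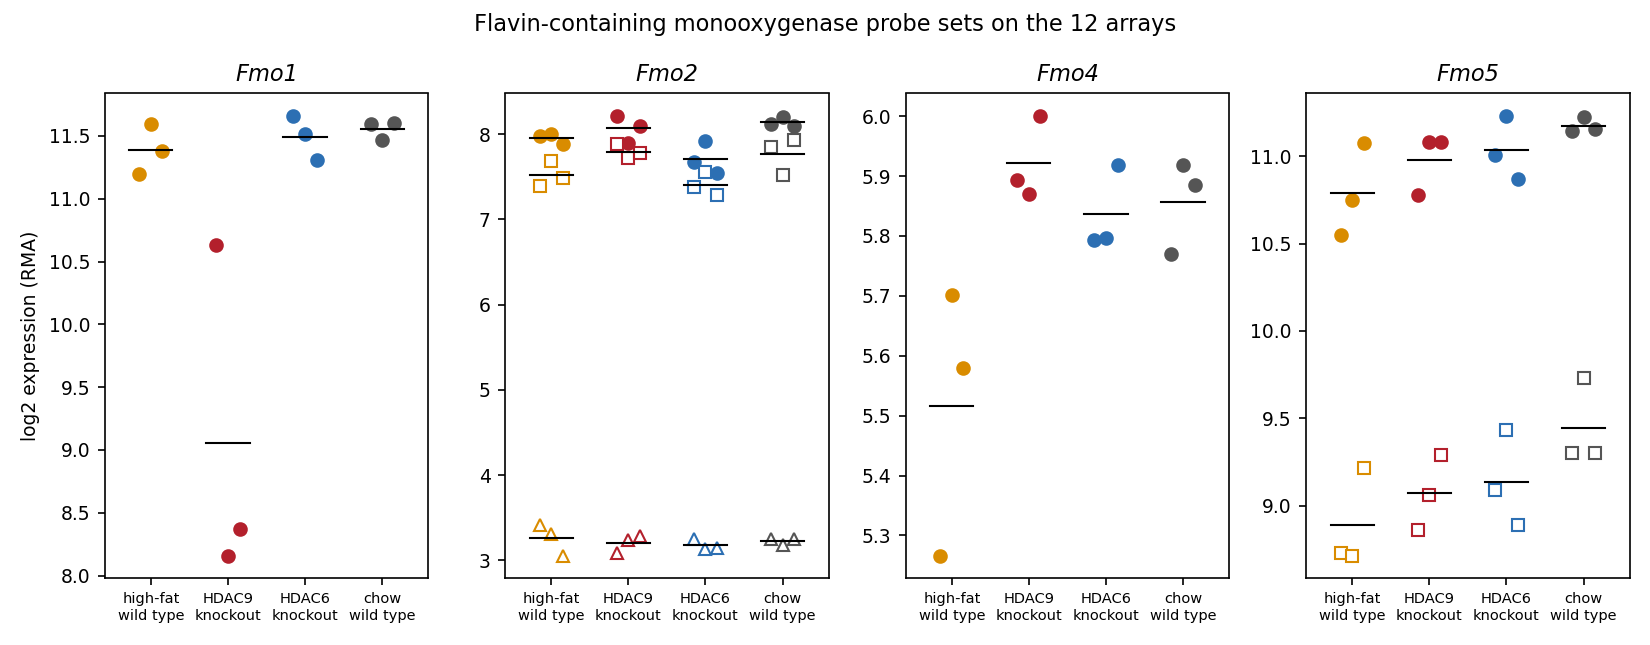
Log2 expression (RMA) of the 7 probe sets of Fmo1, Fmo2, Fmo4 and Fmo5 on the 12 arrays, by group. Each symbol is 1 array, filled circles are the probe set that stands for the gene, open symbols are its other probe sets, black lines are group means (n = 3), and each panel has its own axis. Fmo1 is low on 2 HDAC9 knockout arrays and intermediate on the third, and Fmo4 and Fmo5 have their lowest group means with the high-fat diet.

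Averaged over arrays, Fmo1 was 9.05 ± 1.37 in HDAC9 knockout livers, against 11.56 ± 0.0769 in chow livers (SD, n = 3 each). The difference was -2.50 (SE 0.432, 95% interval -3.43 to -1.58), a level in chow 5.68 times that in the knockout. The HDAC9 knockout difference from HDAC6 knockout livers, which averaged 11.49 ± 0.179, was -2.44. High-fat livers, at 11.39 ± 0.200, lay 2.34 above the HDAC9 knockout, and both differences had the same SE of 0.432. That SE pools the spread of all 4 groups, so it understates the error of differences that involve the widely spread HDAC9 knockout arrays. Fitted on only the 2 groups compared, the SE was 0.541 against chow, 0.533 against the HDAC6 knockout and 0.542 against high-fat livers. Without HDAC9 knockout replicate 1 the difference from chow was -3.29. Without replicate 2, the array with the most pancreas transcripts, it was -2.06. Replicate 3, whose pancreas list median was -0.36 from the 12-array mean, read 8.37, and the part of the pancreas transcripts in the Fmo1 value of replicate 2 was not tested.

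The SD of Fmo1 over the 3 HDAC9 knockout arrays, 1.37, ranked 19 among the 12393 genes, whose median SD in that group was 0.114. Of the 18 genes with a larger SD, 12 were in the pancreas list and 15 were highest on replicate 2. Cyp8b1, the sterol 12-alpha-hydroxylase of bile acid synthesis, was also among the 18, with 10.83, 8.20 and 8.74 on replicates 1, 2 and 3. Like Fmo1 it was highest on replicate 1, with replicates 2 and 3 close together. In the other groups the SD of Fmo1 lay between 0.0769 and 0.200, with gene medians of 0.122 in high-fat, 0.136 in HDAC6 knockout and 0.131 in chow livers. The other 3 Fmo genes had SDs of 0.0699 to 0.177 over the HDAC9 knockout arrays, so the wide spread there was seen in Fmo1 alone of the 4.

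No difference in Fmo1 was detected among the 3 remaining groups. The high-fat difference from chow was -0.17 (limma, adjusted p = 0.930), the HDAC6 knockout difference from chow was -0.06 (adjusted p = 0.993), and the high-fat difference from the HDAC6 knockout was -0.10 (adjusted p = 0.985). The groups overlapped in each case. With 1 array left out at a time the high-fat difference from chow ran from -0.27 to -0.07. These tests borrow the spread of the HDAC9 knockout arrays, which widens their 95% intervals to -1.09 to 0.76 for the high-fat diet and -0.99 to 0.86 for the HDAC6 knockout. Fitted on only the 2 groups compared, the SE was 0.112 for the high-fat diet and 0.0963 for the HDAC6 knockout, and neither passed (adjusted p = 0.714 and 0.986). From highest to lowest mean the order was chow, HDAC6 knockout, high-fat and HDAC9 knockout, and only the last step separated neighbours that did not overlap.

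Fmo2 is the main flavin-containing monooxygenase of lung in many mammals. The probe set that stands for the gene (1422905_s_at, whose suffix marks probes shared between transcripts) read 7.98, 8.01 and 7.89 in high-fat livers, 8.22, 7.89 and 8.10 in HDAC9 knockout livers, 7.67, 7.91 and 7.55 in HDAC6 knockout livers, and 8.12, 8.20 and 8.09 in chow livers. All 3 HDAC6 knockout arrays lay below all 3 chow arrays. The HDAC6 knockout difference was -0.43 (SE 0.115, 95% interval -0.67 to -0.18), and it did not pass over all genes (limma, adjusted p = 0.585). High-fat livers also lay below chow without overlap, with a difference of -0.18 (limma, adjusted p = 0.717), and their difference from the HDAC6 knockout was 0.25 (adjusted p = 0.688). HDAC9 knockout livers lay across the chow values, with a difference of -0.07 (SE 0.115).

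A further Fmo2 probe set (1422904_at) read 7.38, 7.56 and 7.28 in HDAC6 knockout livers and 7.84, 7.52 and 7.93 in chow livers, a difference of -0.35 with 1 chow array inside the knockout range. Its difference was -0.24 in high-fat livers and 0.03 in HDAC9 knockout livers. The remaining Fmo2 probe set (1454005_at) read between 3.05 and 3.42 on every array, near the bottom of the scale, and shows little about the gene. By group mean the order of Fmo2 was chow, HDAC9 knockout, high-fat and HDAC6 knockout, and each group overlapped with its neighbour in that order. Endothelial and lung-type markers, 13 of 13 measured, had summed log2 values of 77.9 to 79.2 in HDAC6 knockout livers and 78.2 to 79.1 in chow livers, and none was called in that comparison. In whole liver, fewer cells of a type and less RNA per cell cannot be told apart, for Fmo2 as for the other genes.

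Fmo4 is the least characterised of these enzymes. Its only probe set (1425799_at) read 5.27, 5.70 and 5.58 in high-fat livers, 5.89, 5.87 and 6.00 in HDAC9 knockout livers, 5.79, 5.80 and 5.92 in HDAC6 knockout livers, and 5.77, 5.92 and 5.88 in chow livers. Every high-fat array lay below every array of the other groups. The high-fat difference was -0.34 against chow (SE 0.119, 95% interval -0.60 to -0.09; limma, adjusted p = 0.387) and -0.32 against the HDAC6 knockout (adjusted p = 0.523). Neither passed. High-fat replicate 1 was the lowest array, and without it the differences were -0.22 from chow and -0.20 from the HDAC6 knockout. The HDAC6 knockout difference from chow was -0.02 (adjusted p = 0.991), and its sign changed when HDAC6 knockout replicate 1 or chow replicate 2 was left out. The HDAC9 knockout mean was 0.06 above chow (SE 0.119). The last step of the order, HDAC9 knockout, chow, HDAC6 knockout and high-fat, was the only one between neighbours that did not overlap.

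Fmo5 differs from its relatives in favouring Baeyer-Villiger reactions, the insertion of oxygen beside a ketone. Its leading probe set (1450332_s_at) read 10.55, 10.75 and 11.08 in high-fat livers, against 11.15, 11.22 and 11.16 in chow livers. No high-fat array reached the chow range, although replicate 3 came within 0.1 of it. The difference was -0.39 (SE 0.133, 95% interval -0.67 to -0.10), short of the threshold over all genes (limma, adjusted p = 0.384). With 1 array left out it ran from -0.53 without high-fat replicate 3 to -0.26 without high-fat replicate 1, the lowest array. The alternative-transcript probe set (1421709_a_at) read 8.73, 8.71 and 9.22 in high-fat livers and 9.30, 9.73 and 9.30 in chow livers, a difference of -0.56, and the groups did not overlap there either.

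In HDAC9 knockout livers Fmo5 read 10.78, 11.08 and 11.08, each below every chow array, with a difference of -0.19 (SE 0.133), which was -0.09 without replicate 1. HDAC6 knockout livers read 11.01, 11.23 and 10.87 and overlapped with chow (difference -0.14, limma adjusted p = 0.927). That difference ran from -0.24 to -0.06 with 1 array left out. On the alternative-transcript probe set HDAC6 knockout livers read 9.09, 9.43 and 8.89, a difference from chow of -0.31. The high-fat mean lay 0.25 below that of the HDAC6 knockout (difference -0.25, adjusted p = 0.773; -0.12 without high-fat replicate 1). Chow, HDAC6 knockout, HDAC9 knockout and high-fat was the order by mean, and neighbouring groups overlapped throughout.

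**Figure D2:**
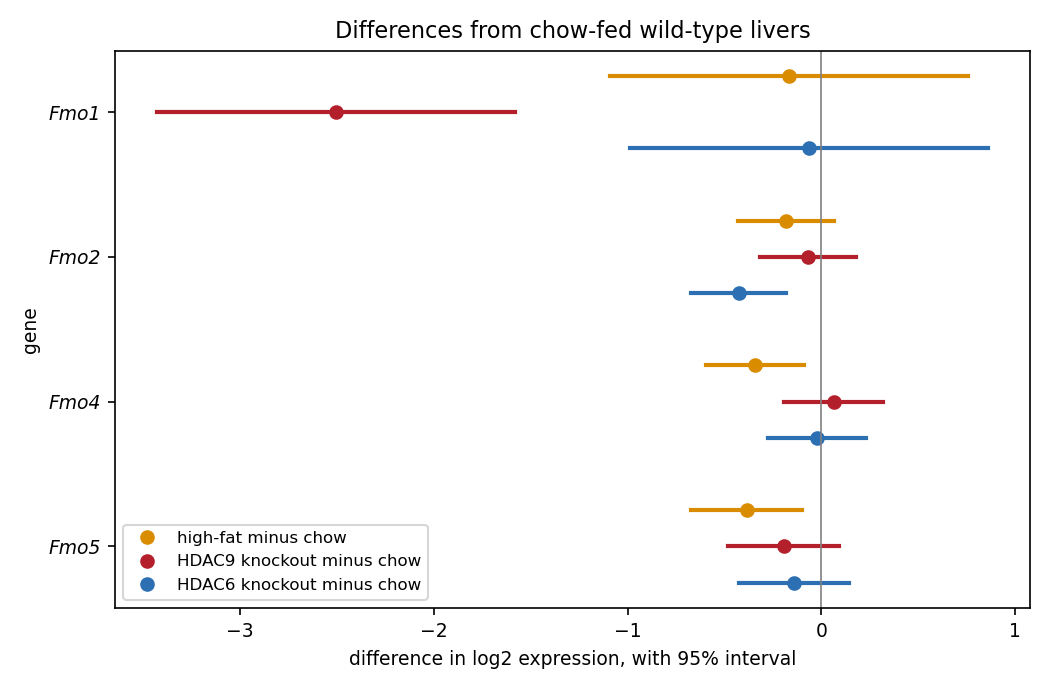
Difference of each Fmo gene from chow-fed wild-type livers on the log2 scale, with limma's 95% interval (n = 3 arrays a group; 4 group means over 12 arrays). The high-fat intervals of Fmo4 and Fmo5 and the HDAC6 knockout interval of Fmo2 lie below 0 before adjustment over all genes, and the HDAC9 knockout point of Fmo1, at -2.50, lies apart from all others.

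Counted as a family, all 4 genes had lower means in high-fat than in chow livers, with a median difference of -0.26, and 52.8% of all genes tested were also lower there. None of the 4 was called at an adjusted p under 0.05, where 0.290% of all genes were called (36 genes, with 1051 at an unadjusted p under 0.05). For 3 of the 4, Fmo2, Fmo4 and Fmo5, the high-fat and chow arrays did not overlap, as for 14.7% of all genes. In HDAC6 knockout livers all 4 again had lower means than in chow (median -0.10, against 54.4% of all genes lower). None was called, against 0.0161% of all genes (2 genes, with 715 at an unadjusted p under 0.05), and Fmo2 was the 1 member without overlap, against 10.1% of all genes. Of the 7 probe sets, 6 were lower in high-fat livers and 7 in HDAC6 knockout livers, where 3 differed by less than 0.1. The 3 comparisons with chow share the chow arrays, so their signs are not independent of each other.

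In HDAC9 knockout livers 3 of the 4 had lower means than in chow, as did 54.0% of all genes. The count at the threshold was 1 of the 4, Fmo1, beside 0.0968% of genes, and the arrays of Fmo1 and Fmo5 did not overlap with chow, beside 12.6% of genes. The counts with HDAC9 knockout arrays use the values for which the family was chosen, so nothing is read from them. In the HDAC9 knockout against the HDAC6 knockout, 0 of 4 were called (0.00807% of genes called, 471 at an unadjusted p under 0.05) and Fmo1 was without overlap (8.46% of genes). Between high-fat and HDAC6 knockout livers 0 of 4 were called (0.145% of genes called, 901 at an unadjusted p under 0.05) and 1, Fmo4, was without overlap (13.1% of genes). Between high-fat and HDAC9 knockout livers the count at the threshold was 1 of 4, again Fmo1 (0.436% of genes), and Fmo1 and Fmo4 were without overlap (13.8% of genes).

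In the reference gene table (assembly GRCm38.p6) Fmo1, Fmo2 and Fmo4 lie in one cluster on chromosome 1, and Fmo5 lies on chromosome 3. The nearest measured protein-coding genes outside the family were Vamp4, Eef1aknmt, Prrx1 and Kifap3 beside the cluster and Bcl9, Chd1l, Pde4dip and Sec22b beside Fmo5. None of these 8 was called in any of the 6 comparisons (limma, smallest adjusted p = 0.530), and their largest difference was 0.40, for Bcl9 in HDAC9 knockout minus chow. Fmo2 and Fmo4, which share the cluster with Fmo1, differed from chow by -0.07 and 0.06 in the HDAC9 knockout.

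Fmo1 varied most of the family, with an SD over the 12 arrays of 1.25 that ranked 12 among all genes. The genes most like it were sought among the 181 other genes with an SD over 0.5, by Pearson's r over the 12 arrays as a description. They were Cyp2b13, a female-biased cytochrome P450 (r = 0.854), Lect2, a protein secreted by hepatocytes (r = 0.788), Oat, the ornithine aminotransferase (r = 0.778), Cyp2c54, a further P450 (r = 0.762), and Rdh9, a retinol dehydrogenase (r = 0.759). Cyp2b13 read 10.31, 8.14 and 8.86 on HDAC9 knockout replicates 1, 2 and 3, and 9.50 to 11.12 on the 9 other arrays. Over those 9 arrays alone r was 0.134 for Cyp2b13, -0.27 for Lect2, -0.34 for Oat, 0.492 for Cyp2c54 and -0.09 for Rdh9. The likeness thus lay mostly in the HDAC9 knockout arrays, which these points share.

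**Figure D3:**
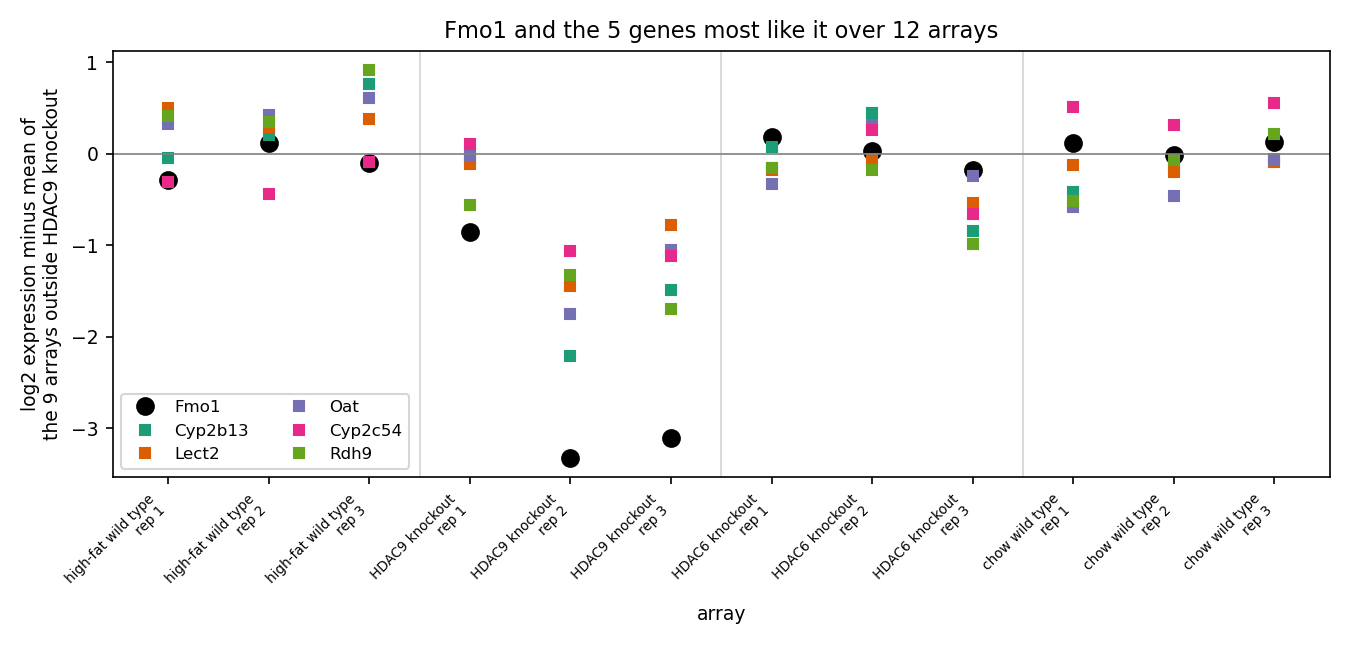
Fmo1 (black circles) and the 5 genes most like it (squares) on each of the 12 arrays, as log2 expression minus the mean of the 9 arrays outside the HDAC9 knockout. On HDAC9 knockout replicates 2 and 3 all 6 genes lie low, Fmo1 lowest. On the 9 other arrays they scatter around 0, but all 6 lie below it on HDAC6 knockout replicate 3 (from -0.17 for Fmo1 to -0.99 for Rdh9). Lect2, Oat and Rdh9 lie above 0 on every high-fat array.

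Genes around the Fmo reaction were read from lists by role. Of 33 measured phase I enzymes other than the Fmo genes (cytochromes P450 and their electron donors, amine and aldehyde oxidases, alcohol dehydrogenases, epoxide hydrolases), 26 had lower means in high-fat than in chow livers, where 52.8% of all genes were lower. Their median difference was -0.18, against -0.01 for all genes, and for 15 the arrays did not overlap, as for 14.7% of all genes. Ephx1, the microsomal epoxide hydrolase, was the 1 member called, beside 0.290% of all genes: it fell to 10.01 ± 0.0909 in high-fat livers, against 11.03 ± 0.365 in chow livers (SD, n = 3 each; difference -1.02, SE 0.199, limma adjusted p = 0.0499). That call was lost in 14 of 18 other settings, with adjusted p of 0.0198 to 0.219 over them. High-fat replicate 1 held the lowest list median, 0.20 below the 12-array mean. In HDAC6 knockout livers 20 of the 33 were lower (median -0.04) and in HDAC9 knockout livers 23 were (median -0.06), with none called. Cyp1a2, a P450 that oxidises aromatic amines and caffeine, had the smallest p of these in the HDAC9 knockout at -0.95 (SE 0.180, limma adjusted p = 0.0840). It passed without HDAC9 knockout replicate 1 (limma adjusted p = 0.0280).

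Genes that supply FAD and NADPH were measured for 12 of 14. Of these, 9 were lower in high-fat livers (median -0.09), 7 in HDAC9 knockout livers (median -0.01) and 6 in HDAC6 knockout livers (median 0.00), and none was called. Malic enzyme, Me1, had the smallest p with the high-fat diet at -0.62 (SE 0.270, limma adjusted p = 0.535). The supply genes were thus not shown to differ in any comparison with chow.

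Taurine and cysteamine genes matter to Fmo1 because hypotaurine is its substrate. Csad, which makes hypotaurine, read 8.56, 8.37 and 8.38 in high-fat livers, 9.998, 8.97 and 9.61 in HDAC9 knockout livers, 10.18, 10.0005 and 9.96 in HDAC6 knockout livers, and 11.35, 10.61 and 9.63 in chow livers. It was the 1 of 14 measured members called in high-fat livers, beside 0.290% of all genes. There it fell from chow (difference -2.09, SE 0.319, limma adjusted p = 0.0110), while Fmo1 was -0.17 from chow. The call of Csad held in 13 of 18 other settings (adjusted p up to 0.112). In the HDAC9 knockout Csad had -1.003 (adjusted p = 0.607). By group, 8 of the 14 were lower in high-fat, 8 in HDAC9 knockout and 5 in HDAC6 knockout livers. Of the 9 measured genes of trimethylamine and carnitine metabolism, whose amines several of these enzymes can oxidise, 5 were lower in high-fat, 5 in HDAC9 knockout and 0 in HDAC6 knockout livers, and none was called.

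Sex-biased genes were listed because Fmo1 itself differs between the sexes in mice. Of 20 measured female-biased genes, 15 were higher in high-fat, 14 in HDAC9 knockout and 18 in HDAC6 knockout livers than in chow, with medians of 0.26, 0.13 and 0.23. Ntrk2 rose in high-fat livers by 1.09 (SE 0.181, limma adjusted p = 0.0188, held in 13 of 18 other settings), and Cyp2b10 fell by 3.68 (SE 0.223, limma adjusted p = 1.27e-06, held in all 18). Both were called, beside 0.290% of all genes. In HDAC6 knockout livers Ntrk2 differed from chow by 0.95 (limma adjusted p = 0.150), which passed with the mean of probe sets (adjusted p = 0.0369) and without chow replicate 2 (adjusted p = 0.0448). Of 24 measured male-biased genes, 20 were lower in high-fat, 21 in HDAC9 knockout and 20 in HDAC6 knockout livers, with medians of -0.29, -0.31 and -0.28. Over all genes 52.8% were lower in high-fat, 54.0% in HDAC9 knockout and 54.4% in HDAC6 knockout livers. Ugt2b1 (-0.67), Slco1a1 (-3.47) and Hsd3b5 (-3.62) were called in the HDAC9 knockout, 3 of the 24 beside 0.0968% of all genes, with adjusted p of 0.0377, 0.0463 and 0.0463 (limma). Over other settings these calls held in 7 of 18, 4 of 18 and 4 of 17, with adjusted p up to 0.165, 0.436 and 0.436. The male-biased list was highest on chow replicate 1, at 0.54 above the 12-array mean. On the same array the female-biased list was lowest, with a median of -0.31 from the 12-array mean. Its summed log2 value there was 157.4, against 169.2 and 172.9 on chow replicates 2 and 3. The part of chow replicate 1 in the differences of both lists was not tested. Fmo1 on that array, 11.60, was within 0.01 of chow replicate 3.

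Acute phase genes, which the liver induces in inflammation, were higher in 25 of 32 in HDAC9 knockout livers (median 0.15), in 17 with the high-fat diet (median 0.01) and in 14 in the HDAC6 knockout (median -0.03). Of all genes, 54.0%, 52.8% and 54.4% had lower means than in chow, in the same order of groups. Orm2 was called in the HDAC9 knockout at 1.55 (SE 0.252, limma adjusted p = 0.0454), beside 0.0968% of all genes. That call was kept in 5 of 18 other settings (adjusted p up to 0.309). By array the list median was 0.08, 0.37 and 0.01 above the 12-array mean on HDAC9 knockout replicates 1, 2 and 3, and without replicate 2 the HDAC9 knockout count was 19 of 32 (median 0.06). The part of these genes in the Fmo1 values was not tested. Of 25 measured nuclear receptors and liver transcription factors, 14 were lower in high-fat, 16 in HDAC9 knockout and 14 in HDAC6 knockout livers, and none was called. Ahr, the aryl hydrocarbon receptor, had -0.79 (SE 0.183, limma adjusted p = 0.230) in the HDAC9 knockout, and Foxa2 had -0.65 (SE 0.137, adjusted p = 0.0807) with the high-fat diet. Foxa2 passed there without chow replicate 2 (limma adjusted p = 0.0326). Foxa3 in the HDAC9 knockout (-0.93, limma adjusted p = 0.523) passed with replicate number as a block (limma adjusted p = 0.0224).

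**Figure D4:**
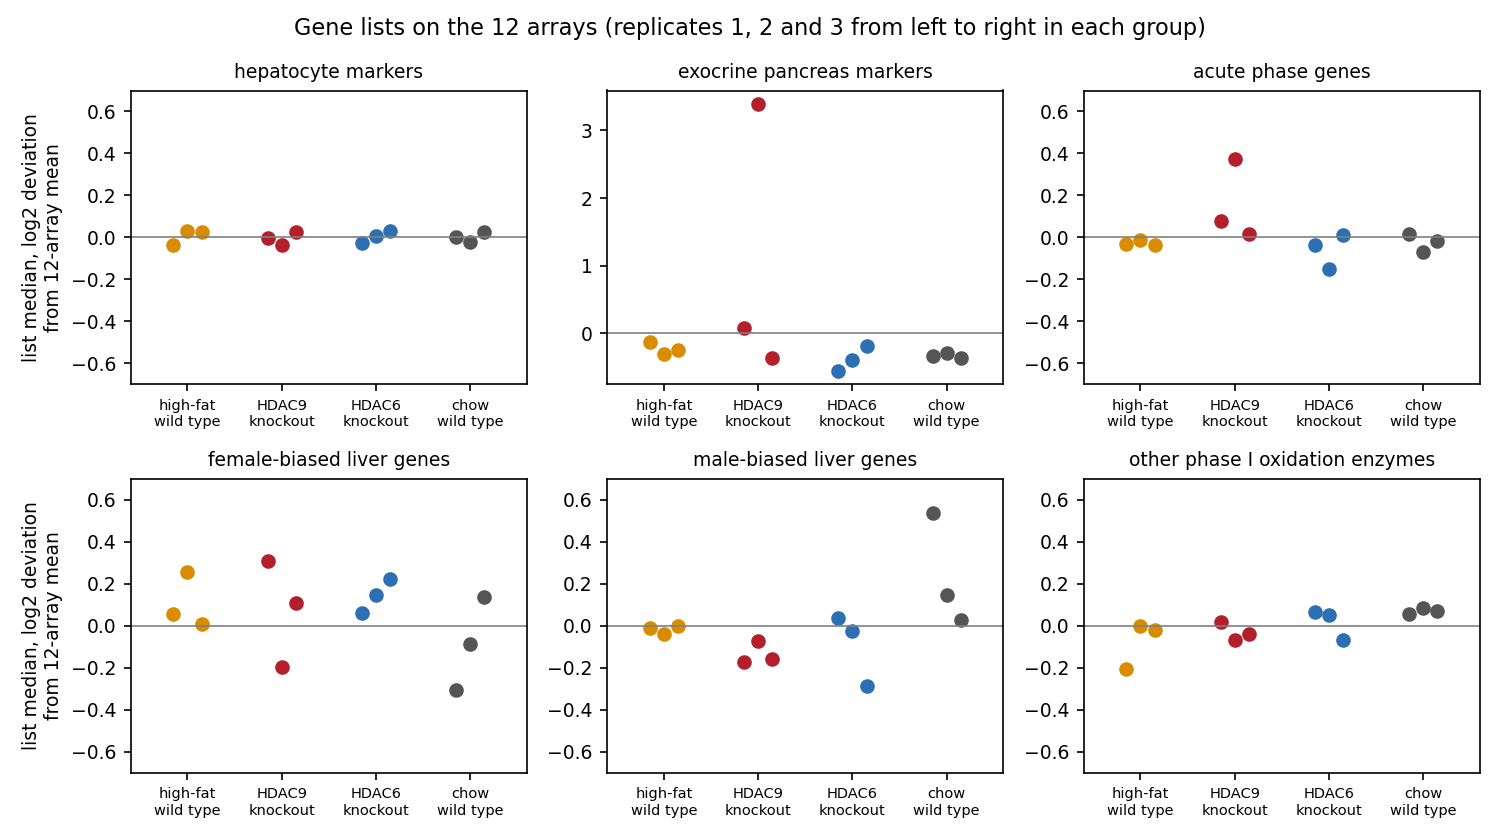
Median log2 deviation of 6 gene lists from their 12-array means, with 1 point per array and replicates 1, 2 and 3 from left to right in each group. Hepatocyte markers stay within 0.04 of 0 on all arrays, the pancreas list reaches 3.39 on HDAC9 knockout replicate 2 (its panel has its own axis), and the male-biased list is highest, at 0.54, on chow replicate 1.

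Markers of other cells were compared between HDAC9 knockout and chow livers, with all 3 knockout arrays and then, as an alternative added after seeing the data, without replicate 2. Of all genes, 54.0% had lower means in the HDAC9 knockout with all 3 arrays, and 53.4% without replicate 2. The pancreas list had 20 of 21 members higher than in chow (median 1.25, none called). Most of that difference came from replicate 2: without it 18 of 21 were higher with a median of 0.16. The list median was 0.08 on replicate 1 and -0.36 on replicate 3, beside -0.36 to -0.30 on the chow arrays. The summed log2 value of replicate 1, 98.8, also lay above every array of the other groups, the highest of which was 94.8. Neutrophil markers were higher in 13 of 13 (12 of 13 without replicate 2). Their summed log2 values were 64.4, 71.4 and 63.6 on replicates 1, 2 and 3, against 58.3 to 60.97 in chow livers. Much of the excess on replicate 2 lay in 1 member, Prtn3, which read 4.92, 8.71 and 4.40. The neutrophil list medians were closer together, at 0.105, 0.194 and 0.105 above the 12-array mean. Il1b was called (0.84, SE 0.127, limma adjusted p = 0.0377, kept in 9 of 17 other settings), beside 0.0968% of all genes. Adipocyte markers were higher in 12 of 13, and in 11 without replicate 2. On replicates 1, 2 and 3 they summed to 77.8, 80.9 and 77.5, against 75.1 to 76.8 in chow livers. Replicates 1 and 3 thus lay within the high-fat range of 77.4 to 78.3, and replicate 2 lay above it. Adipoq, a member of the list, read 2.93, 4.96 and 2.82 on the 3 knockout arrays, against 2.77 to 2.91 in chow livers. The adipocyte list medians were close together, at 0.053, 0.044 and 0.044. Lpl was called (1.23, SE 0.208, limma adjusted p = 0.0463, kept in 5 of 18 other settings). The Kupffer cell and macrophage list had 13 of 14 members above chow with and without replicate 2 (127.8 to 131.9, against 124.1 to 129.3). The macrophage list on replicate 3, with a median of -0.13, lay within the chow range of -0.39 to -0.01. Stellate and kidney-type markers were higher in 8 of 13 and endothelial and lung-type markers in 7 of 13. Macrophage markers were higher than in chow in all 3 other groups: in 12 of 14 in high-fat livers (median 0.34), in 13 in HDAC9 knockout livers (median 0.30) and in 11 in HDAC6 knockout livers (median 0.22), with none called. Adipocyte markers were higher in 10 of 13 in high-fat livers (median 0.073, beside 0.065 in the HDAC9 knockout) and in 7 in HDAC6 knockout livers. Neutrophil markers were higher in 10 of 13 in high-fat livers (median 0.15, beside 0.30 in the HDAC9 knockout) and in 8 in HDAC6 knockout livers. The part of these cells in the Fmo values was not tested. Hepatocyte markers, by contrast, had a median difference of -0.01 from chow in both the high-fat and the HDAC9 knockout group.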

How the data were processed

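Liver RNA, 100 ng a sample per the labels, was measured on 12 Affymetrix Mouse430A arrays. The deposited values are on a log2 scale, 1 per probe set and array, after RMA according to the submitters' processing notes. Which software and chip definition were used is not given in the sources used here, and the values were analysed as they stand. RMA scales all arrays to one distribution, so a change shared by all genes is not seen. A platform annotation gave 20380 of 22626 probe sets 1 symbol, 691 several and 1555 none. The probe set of highest mean among those with 1 symbol stood for each gene, which gave 12393 genes.

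The tests used limma 3.58.1 in R 4.3.3 (4 group means over 12 arrays, mean-variance trend, 14.32 degrees of freedom, two-sided, Benjamini-Hochberg over all genes of a comparison, threshold 0.05). Each adjusted p of a gene in the text is limma's. Probe sets were also fitted on their own. Named are all member probe sets, 2 measured neighbours on each side, the 5 genes most like a member of wide spread, and, from 15 lists, called members or those of smallest p. The members and lists were chosen with earlier results of these data known. Alternatives covered the variance prior, normalization, low-expression filters (4.39 and 6.39), probe-set rules, threshold, samples fitted, replicate blocks and each array left out. The fit was tested on simulated data. Figures used Python 3.11.15, pandas 2.3.3 and matplotlib 3.10.9.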

Additional observations from a re-analysis of the deposited data

How the results depend on the processing

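Of 426 values of the 24 member differences under other settings, 421 kept their direction and call or, for the differences from or to the HDAC9 knockout, which have no test, moved by less than 1 replicate SD. Fmo2 in HDAC9 knockout minus chow changed sign (-0.14 to 0.02 with 1 array left out), as did Fmo5 in HDAC9 knockout minus HDAC6 knockout (-0.14 to 0.05). Fmo1 in HDAC6 knockout minus chow was 0.0299 without HDAC6 knockout replicate 3 (range -0.148 to 0.0299 with 1 array left out), and Fmo4 there was 2.83e-05 without HDAC6 knockout replicate 1 and 0.0088 without chow replicate 2 (range -0.0654 to 0.0088). Removing probe sets with shared probes moved Fmo5 to -0.37 in HDAC9 knockout minus chow and Fmo2 to -0.27 in high-fat minus HDAC9 knockout. With 1 array left out, Fmo1 in HDAC9 knockout minus chow ran from -3.29 to -2.06.

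Counts that use HDAC9 knockout arrays rest on the values for which the family was chosen, so nothing is read from them. The count of members called in HDAC9 knockout minus chow, 1, was 0 without a variance trend, with a robust prior, after quantile normalization, with either low-expression filter, with the mean of probe sets, with every probe set on its own, at an adjusted p under 0.01 and with only the 2 groups. It was 0 to 1 with 1 array left out (0 without HDAC9 knockout replicate 2 or 3 or any chow replicate). In high-fat minus HDAC9 knockout it was 0 with a robust prior, the mean of probe sets, the stricter threshold and only the 2 groups, and 0 to 1 with 1 array left out (0 without HDAC9 knockout replicate 2 or 3 or any high-fat replicate). In HDAC9 knockout minus HDAC6 knockout it was 0 to 1, with 1 without HDAC9 knockout replicate 1. The count over the 7 probe sets, 1 over all comparisons (Fmo1 in high-fat minus HDAC9 knockout), was 0 without a trend, with a robust prior and after quantile normalization, settings added after seeing the data. The cause was not tested. In high-fat minus chow, high-fat minus HDAC6 knockout and HDAC6 knockout minus chow the count was 0 in every setting. The 50th percentile filter removed Fmo4. All genes called numbered 12 in HDAC9 knockout minus chow (0 to 17 across settings, and 0 to 13 with 1 array left out), 36 in high-fat minus chow (12 to 36, and 13 to 33), 54 in high-fat minus HDAC9 knockout (7 to 68, and 9 to 97), 18 in high-fat minus HDAC6 knockout (11 to 56, and 8 to 24), 2 in HDAC6 knockout minus chow (1 to 3, and 1 to 4) and 1 in HDAC9 knockout minus HDAC6 knockout (1 to 2, and 1 to 4).

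Of 1201 values of named list genes, 1093 were unchanged in direction and call, 96 lost a call, 7 gained one and 5 changed sign. In HDAC6 knockout minus chow Rfk was -0.088 and Hnf4a -0.20, and with the mean of probe sets they were 0.015 and 0.12. Mt1 in high-fat minus chow was -1.15 in the main fit, 0.0059 with the mean of probe sets and 1.16 after removing shared-probe sets, so its direction depended on the probe set. Pgd in HDAC9 knockout minus chow was 0.18 in the main fit and -0.018 without HDAC9 knockout replicate 3 (range -0.018 to 0.387). Same-numbered arrays of different groups did not deviate together (18 pairs, r -0.15 to 0.15; 2 of 12 arrays correlated best with their own number), so the numbers were not read as pairs. With replicate number as a block, the count of members called was unchanged in each comparison (1 in HDAC9 knockout minus chow), and all genes called there numbered 17.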

Other observations

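Across all 12393 genes, 69 (0.557%) had all 3 HDAC9 knockout arrays below all 9 other arrays, and 49 (0.395%) had them all above. How many genes would be placed so without any group difference was not tested. Within the 69, the gap between the highest HDAC9 knockout array and the lowest of the 9 others was largest for Fmo1, at 0.56. The next genes, picked out after their values were seen and not tested, were Cenpk, a kinetochore protein (0.36), Arhgap5 (0.33) and Aurka, a mitotic kinase (0.25).

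3 further genes with an SD over the HDAC9 knockout arrays near that of Fmo1, also picked after their values were seen, are given as values. Elovl3, a fatty acid elongase, read 7.57, 5.17 and 5.52 on replicates 1, 2 and 3. Serpinb1a, a protease inhibitor, read 9.06, 6.12 and 6.64. Pnpla3, a lipid droplet hydrolase, read 6.20, 8.42 and 9.52. Replicate 1 was the highest of the 3 for Elovl3 and Serpinb1a and the lowest for Pnpla3.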
